A study of Caenorhabditis elegans with 12 samples.

Results

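Superoxide dismutases, catalase and peroxiredoxins are the enzymes that take apart reactive oxygen species inside and around animal cells, and 8 of their genes in Caenorhabditis elegans are described here: sod-1, sod-2, sod-3, sod-4, sod-5, ctl-2, prdx-2 and prdx-3. They were chosen by gene name, with earlier results of these data known, among 17118 genes that the array measures by a probe set carrying a single gene. Each of the 8 had 1 such probe set. RNA came from wild-type N2 (Bristol) worms, unmodified in genotype in every group, whose larvae were 12 h old when they entered the exposure solutions and stayed there for 48 h. The groups were control solution, artificially aged silver nanoparticles (sulfidized, by the study's title), pristine silver nanoparticles and silver nitrate, with 3 arrays each and 12 in all. The 3 silver exposures were given at their effect concentration of 30% for reproduction, and the amounts of silver are not compared here. Each RNA sample was drawn from a whole-worm population of 2000 to 3000 animals, so a difference can come from more or less RNA per cell or from a changed share of the cells that make it, and these cannot be told apart. Nothing in the labels tells whether replicates came from separate cultures, so each p-value covers the spread among these samples alone, and that spread may be technical.

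Superoxide dismutases turn superoxide, a by-product of respiration and of oxidase enzymes, into hydrogen peroxide and oxygen. Catalases and peroxiredoxins then remove the hydrogen peroxide, catalases without a reducing partner and peroxiredoxins with help from thioredoxin. In the worm, sod-1 and sod-5 code for cytosolic copper/zinc enzymes, sod-4 for an extracellular copper/zinc enzyme, and sod-2 and sod-3 for manganese enzymes of the mitochondrial matrix. Expression of sod-3 is widely used as a readout of DAF-16, the FOXO transcription factor held back by insulin-like signalling. The ctl-2 product is the peroxisomal catalase, prdx-2 codes for a cytosolic peroxiredoxin, and prdx-3 for a mitochondrial one.

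Values are the deposited linear signals of an Affymetrix array after scaling each array to a common median. No member lay at the lower limit of 16 signal units, below which values were set to 16, on any array. Log2 differences, their standard errors (SE) and intervals come from a limma model over all 12 arrays, and a gene was called changed at a Benjamini-Hochberg adjusted p under 0.05 over 22548 probe sets. Array medians were 119.7 to 135.5 signal units before scaling. The correlation between arrays over the probe sets was 0.974 to 0.982 inside a group and 0.968 to 0.983 for arrays of different groups. As a check of the material, the 6 neuron, 6 body wall muscle and 6 epidermis markers and 5 measured intestine markers were set against the limit of 16. All lay above it on every array, except 1 epidermis marker at the limit on at least 1 silver nitrate array. The limit lies far under the array medians, so this does not show that each marker was detected. Of 5 measured yolk protein genes, which adult hermaphrodites express strongly, 3 lay at the limit on at least 1 array of each group. Their mean log2 level was 5.24 to 5.38 in control, 4.92 to 5.12 with aged particles, 4.85 to 5.09 with pristine particles and 4.67 to 4.90 with silver nitrate. Each exposure lay under control by this measure, which includes the values set to the limit. Their summed signal was 253 to 304 in control, 214 to 270 with aged particles, 201 to 267 with pristine particles and 165 to 230 with silver nitrate. By this sum both kinds of particle overlapped with control, and silver nitrate did not. The summed signal of 6 germline markers was 637 to 1084 in control, 841 to 1407 with aged particles, 1171 to 1520 with pristine particles and 1257 to 1548 with silver nitrate, with no overlap with control for pristine particles and silver nitrate. By mean log2 level, only silver nitrate (7.15 to 7.58) did not overlap with control (6.25 to 7.03). Aged particles (6.75 to 7.37) and pristine particles (6.94 to 7.33) did. The part of either list in the values below was not tested.

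No antioxidant gene of the 8 passed the threshold in any comparison. Against control, limma called 0 of 8 with aged particles (0.00887% of all probe sets were called), 0 of 8 with pristine particles (0.00443%) and 0 of 8 with silver nitrate (0.133%). At an unadjusted p under 0.05 the counts were 0 of 8 for aged particles, where 8.25% of all probe sets passed, 1 of 8 for pristine particles (sod-3, 8.63%) and 2 of 8 for silver nitrate (sod-4 lower and ctl-2 higher, 12.3%). The F test over the 3 exposures called 0 of 8 (0.0621% of all probe sets), with sod-3 alone under an unadjusted p of 0.05 (12.9%). The member counts are too small to set apart from these shares.

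**Figure D1:**
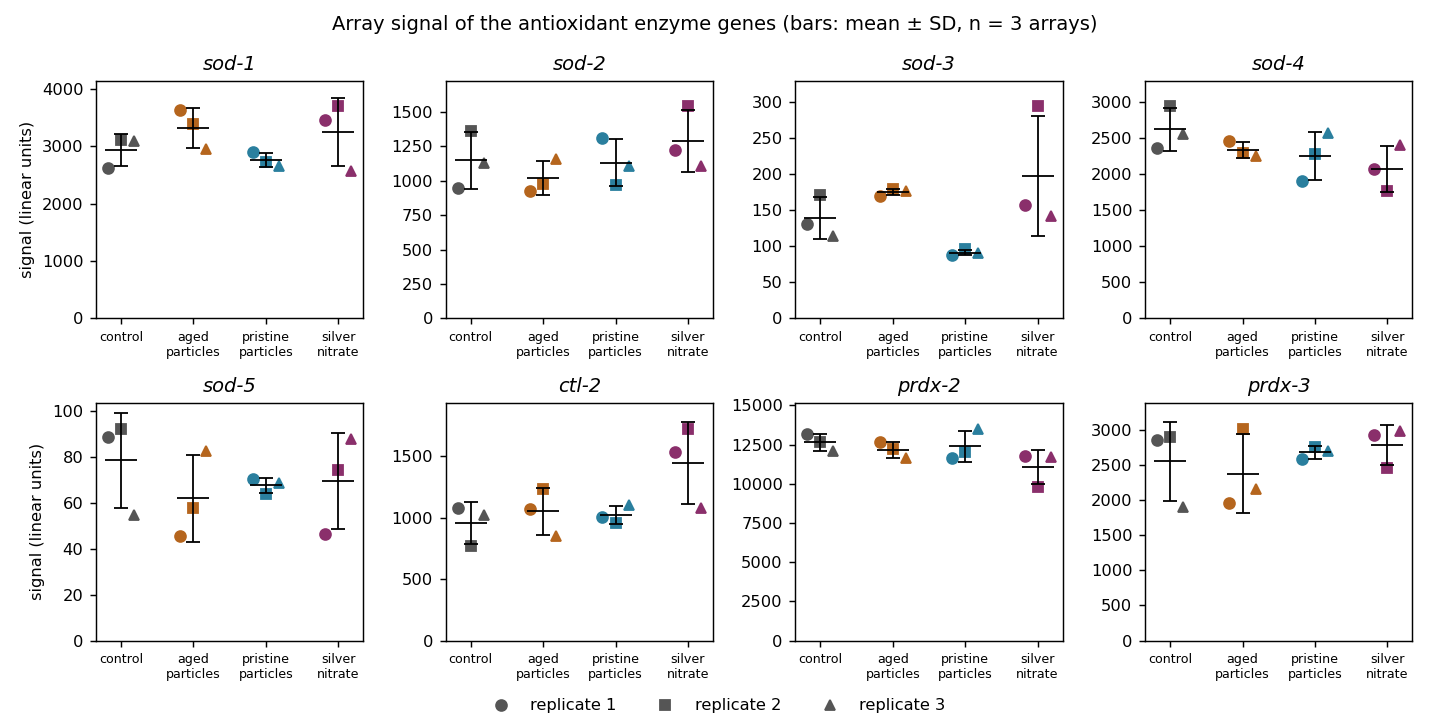
Signal in linear units (vertical axes from 0, a scale of its own for each gene) on each of the 12 arrays, by group; marker shapes give the replicate number, and bars give the mean ± SD of 3 arrays. The pristine-particle arrays of sod-3 lie at 87.9 to 95.7, under every other array, and silver nitrate replicate 2 is the highest of the 12 for sod-1, sod-2, sod-3 and ctl-2.

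The cytosolic dismutase gene sod-1 differed little between groups. Its signal was 2614, 3102 and 3089 on the control arrays and 3619, 3377 and 2942 with aged particles. With pristine particles it was 2889, 2730 and 2649, and with silver nitrate 3457, 3689 and 2569. The control arrays overlapped with those of each exposure, while all 3 aged-particle arrays lay above all 3 pristine-particle arrays. Against control the log2 difference was 0.17 for aged particles (95% interval −0.14 to 0.49, limma adjusted p = 0.788), −0.09 for pristine particles (−0.40 to 0.23, adjusted p = 0.934) and 0.13 for silver nitrate (−0.19 to 0.45, adjusted p = 0.785). The lowest and the highest of the 12 arrays, 2569 and 3689, both belonged to the silver nitrate group, so its own spread covered the range of the other groups.

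The extracellular dismutase gene sod-4 had its highest mean in control and its lowest with silver nitrate. The control arrays read 2367, 2944 and 2562 and the silver nitrate arrays 2070, 1767 and 2402. Aged-particle arrays read 2469, 2295 and 2253, and pristine-particle arrays 1908, 2282 and 2579. Every exposed group overlapped with control, in the silver nitrate group through its replicate 3. The silver nitrate difference was −0.34 ± 0.14 SE on the log2 scale (95% interval −0.66 to −0.02), with an unadjusted p of 0.0392 and an adjusted p of 0.376 from limma. The differences were −0.16 (−0.48 to 0.16) for aged and −0.22 (−0.54 to 0.10) for pristine particles, so all 3 exposures had means under control without any being called.

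The other cytosolic dismutase gene, sod-5, was dim and variable. Its control arrays read 88.7, 92.2 and 54.7 signal units, its aged-particle arrays 45.6, 57.7 and 82.7, and its silver nitrate arrays 46.5, 74.4 and 87.5. The pristine-particle arrays, at 70.2, 64 and 68.4, lay within the range of control. No pair of groups separated. The limma intervals against control ran from −1.02 to 0.33 for aged particles, −0.86 to 0.50 for pristine particles and −0.86 to 0.49 for silver nitrate, so the intervals reach from 2.03-fold lower to 1.26-fold higher for aged particles and, for the other exposures, up to 1.41-fold higher. This was the single member too dim for the stricter filter that keeps probe sets above median brightness.

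The mitochondrial dismutase gene sod-2 showed no separation of groups. Its signal was 947, 1365 and 1132 on the control arrays, 924, 975 and 1162 with aged particles, and 1313, 972 and 1109 with pristine particles. With silver nitrate it was 1220, 1540 and 1109, which gave that group the highest mean. Log2 differences against control were −0.16 (95% interval −0.56 to 0.24, limma adjusted p = 0.863) for aged particles, −0.02 (−0.42 to 0.39, adjusted p = 1) for pristine particles and 0.17 (−0.23 to 0.57, adjusted p = 0.775) for silver nitrate.

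Its partner in the mitochondrial matrix, sod-3, varied most among the 8 genes, with a range of 1.04 between group means on the log2 scale against 0.19 to 0.58 for the others. The control arrays read 130.7, 171.2 and 114.8 signal units. The pristine-particle arrays read 87.9, 95.7 and 90.4, and the aged-particle arrays 170.1, 178.8 and 177.1. Both particle groups were tight around their means, and the 3 pristine arrays lay under every other array of the study. The silver nitrate arrays read 156.7, 293.8 and 142.2, so that replicate 2 stood far above the other 2 and above all other arrays.

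Against control, sod-3 signal with pristine particles was 1.5-fold lower (log2 difference −0.59 ± 0.25 SE, 95% interval −1.15 to −0.02). This reached an unadjusted p of 0.0446 and an adjusted p of 0.561, so the difference was not called. With aged particles it was 1.28-fold higher (0.36, interval −0.21 to 0.92, limma adjusted p = 0.756), and control replicate 2 lay within the aged range. With silver nitrate the difference was 0.45 (−0.12 to 1.02, adjusted p = 0.528), and it was 0.12 without silver nitrate replicate 2. The order of the means was silver nitrate, aged particles, control and pristine particles, and only the step from control to pristine particles had arrays that did not overlap. Across all probe sets, pristine and control arrays did not overlap in 11.3%, and sod-3 was the 1 member of 8 among them.

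The clearest contrast for sod-3 was between the exposures. Aged particles gave 1.92-fold the signal of pristine particles, a log2 difference of 0.94 ± 0.25 SE (95% interval 0.37 to 1.51) with an unadjusted p of 0.00459 and a limma adjusted p of 0.237. Silver nitrate gave 2.05-fold the signal of pristine particles (log2 difference of pristine minus silver nitrate −1.04 ± 0.25 SE, interval −1.60 to −0.47, adjusted p = 0.241), and the size was −0.71 without silver nitrate replicate 2. In both contrasts every array of the higher group lay above every pristine array, and neither was called in the model over 12 arrays. The difference between aged particles and silver nitrate was −0.09 (−0.66 to 0.47), an interval from 1.58-fold lower to 1.39-fold higher with aged particles. The adjusted p for aged against pristine particles was 0.0263 with the 6 compared arrays alone, where the wide silver nitrate group did not enter the spread, and 0.0672 without silver nitrate replicate 2. For pristine particles against silver nitrate it was 0.0492 when probe sets under median brightness were left out before adjustment. Other alternatives moved these values up. Over all alternatives the limma adjusted p ran from 0.0263 to 0.481 for aged against pristine particles. For pristine particles against silver nitrate it ran from 0.0492 to 0.535. Both highest values came from leaving out pristine replicate 3.

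Marker levels of other tissues moved along with this contrast in part, and not by every measure. The mean log2 level of the 6 epidermis markers was 8.08 to 8.58 on the aged-particle arrays and 7.46 to 7.87 on the pristine-particle arrays, which do not overlap, and 7.73 to 8.15 in control. With silver nitrate, where sod-3 had its highest mean through replicate 2 and the other replicates lay within the control range, the epidermis level was 7.31 to 8.10. The summed signal of the same markers did overlap, at 3111 to 3922 with aged and 3073 to 3454 with pristine particles. That sum was 3143 to 3656 in control and 3707 to 4033 with silver nitrate. Only 3 of the 6 epidermis markers lay higher with aged than with pristine particles. The 5 measured intestine markers lay at 9.89 to 10.1 for aged and 9.92 to 10.1 for pristine particles. In the same order, the 6 body wall muscle markers lay at 10.73 to 11.02 and 10.60 to 10.77, which overlap. Of these, 5 lay higher with aged particles. The 6 neuron markers lay at 10.81 to 10.94 and 10.62 to 10.95 (4 higher with aged particles). The 6 germline markers lay at 6.75 to 7.37 and 6.94 to 7.33 (3 higher). The part of tissue makeup in the sod-3 values was not tested.

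Between exposures, limma called 0 of 8 members for aged against pristine particles (0.111% of all probe sets), 0 of 8 for aged particles against silver nitrate (0.253%) and 0 of 8 for pristine particles against silver nitrate (0.00443%). At an unadjusted p under 0.05, sod-3 was the 1 member in the first contrast (10.3% of all probe sets), none was in the second (11%), and sod-3 and ctl-2 were in the third (9.54%). Arrays did not overlap for sod-1 and sod-3 between aged and pristine particles, where 15.6% of all probe sets did not, for no member between aged particles and silver nitrate (15.2%), and for sod-3 between pristine particles and silver nitrate (13.5%). No member separated aged particles from control (11.1%). These comparisons share groups of arrays, so they are not independent of each other.

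**Figure D2:**
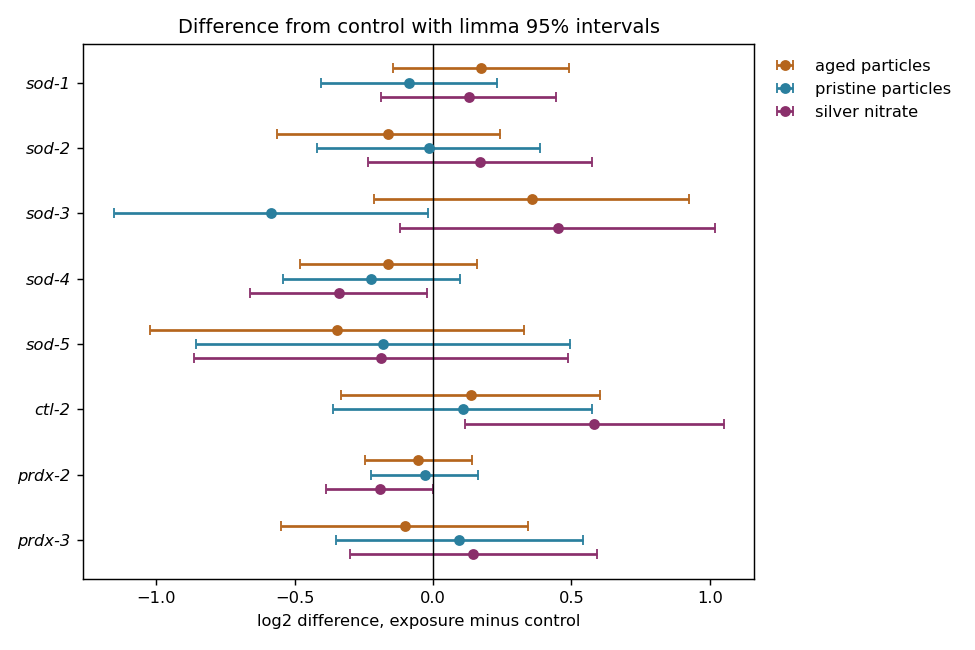
Log2 difference from control (horizontal axis) of each of the 8 genes for aged particles, pristine particles and silver nitrate, as points with 95% intervals from limma. The intervals of sod-3 with pristine particles, sod-4 with silver nitrate and ctl-2 with silver nitrate do not reach 0 before adjustment, and none passed after it.

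The peroxisomal catalase gene ctl-2 had its highest signal with silver nitrate. The silver nitrate arrays read 1534, 1723 and 1077 signal units, and the control arrays 1081, 766 and 1023. Aged-particle arrays read 1068, 1236 and 853, and pristine-particle arrays 1008, 956 and 1100. Silver nitrate replicates 1 and 2 lay above every other array, while replicate 3 lay among the controls. The difference from control was 0.58 ± 0.21 SE on the log2 scale, or 1.5-fold (95% interval 0.12 to 1.05), with an unadjusted p of 0.02 and a limma adjusted p of 0.294. Leaving out 1 array at a time gave 0.43 to 0.78. Differences for aged particles (0.14, interval −0.33 to 0.60) and pristine particles (0.11, interval −0.36 to 0.58) were within the spread between replicates.

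Further catalase measurements exist on the same arrays. The worm has a cluster of catalase genes, and 1 probe set carries both ctl-1, which codes for a cytosolic catalase, and ctl-3, so its signal belongs to neither alone. This shared probe set read 443.6, 459.6 and 451.1 in control, 630.9, 630.4 and 527.8 with aged particles, and 604.5, 473.1 and 418.9 with pristine particles. With silver nitrate it read 768.9, 943.4 and 593.1. Every aged-particle and every silver nitrate array lay above every control array, where 11.1% and 14.1% of all probe sets did not overlap with control. The log2 difference was 0.74 ± 0.18 SE with silver nitrate, or 1.67-fold (95% interval 0.34 to 1.15, unadjusted p = 0.00253, limma adjusted p = 0.142), 0.40 with aged particles (interval −0.01 to 0.80, adjusted p = 0.613) and 0.13 with pristine particles (adjusted p = 0.912). None of these was called.

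The array's own control probe sets include 3 that are named for a worm catalase, at its 3-prime end, middle and 5-prime end, without saying which gene. The 3-prime set read 267.8, 321.7 and 335.1 in control and 503.4, 653.6 and 397.6 with silver nitrate. The middle set read 226.1, 220.0 and 294.2 in control and 327.0, 493.7 and 335.8 with silver nitrate, and the 5-prime set 107.5, 80.6 and 116.0 against 148.7, 155.1 and 140.9. In each of the 3, all silver nitrate arrays lay above all control arrays. Of all probe sets tested, 14.1% did not overlap between these groups, 11.1% between aged particles and control, and 11.3% between pristine particles and control. The 3-prime set also lay above control on all aged-particle and pristine-particle arrays (log2 differences 0.35 and 0.20), and the 5-prime set on all pristine-particle arrays (0.37). Log2 differences were 0.73 ± 0.18 SE, 0.63 ± 0.18 and 0.56 ± 0.17 in that order, with unadjusted limma p-values of 0.00274, 0.00696 and 0.00814. Control probe sets stood outside the adjustment, and since they may read the same transcripts as the other catalase probe sets, they are not independent evidence.

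Across the 5 catalase probe sets, silver nitrate replicate 2 was the highest of the 12 arrays in each. The 4 that are not ctl-2 still differed from control by 0.44 to 0.58 on the log2 scale without that array, an alternative chosen after the data were seen. Silver nitrate and control arrays did not overlap in any of them except ctl-2, which is a description, since the array controls were taken up after their values were seen. Among the 8 members, prdx-2 was the 1 whose silver nitrate and control arrays did not overlap, where 14.1% of all probe sets did not. Intestine markers lay higher with silver nitrate too, with a mean log2 level of 10.2 to 10.5 against 9.64 to 9.96 in control, and a summed signal of 10410 to 12841 against 8867 to 10611. Their part in the catalase values was not tested. The 3-prime minus 5-prime log2 signal of the catalase controls, which reads RNA integrity, was 1.5 to 2.08 with silver nitrate and 1.32 to 2.00 in control. For the other integrity controls it was 1.16 to 1.71 against 1.53 to 2.01 for actin, 0.15 to 0.31 against 0.20 to 0.28 for Gapdh, and 3.71 to 4.03 against 3.83 to 4.29 for ubiquitin. All 4 ranges overlapped with control, and the means lay higher than control for catalase and lower for the others.

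**Figure D3:**
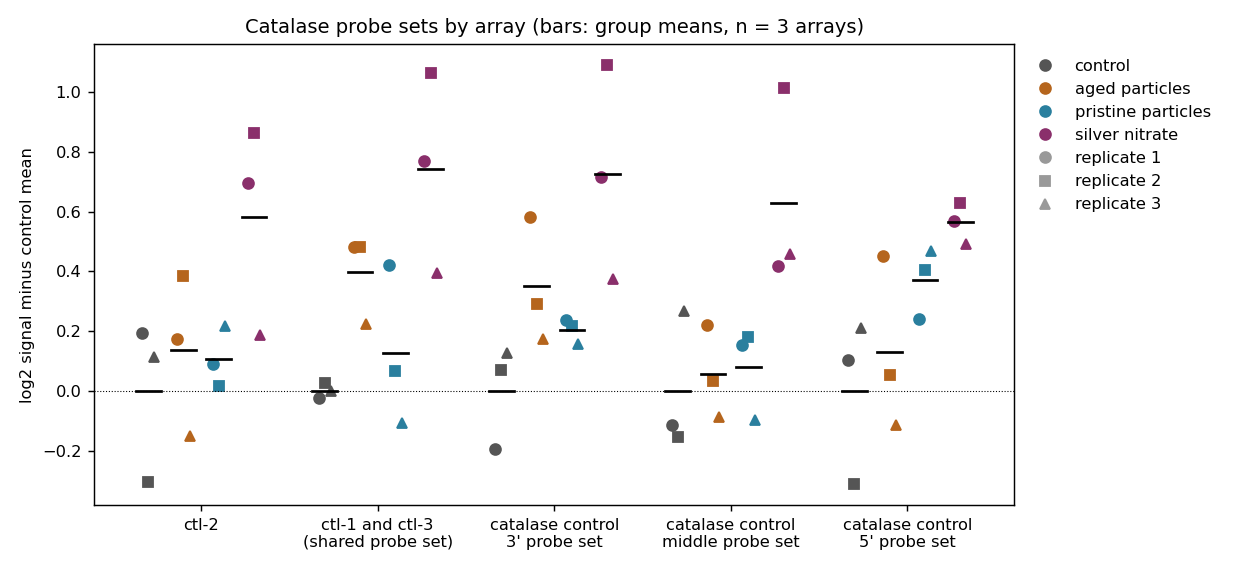
Log2 signal minus the control mean (vertical axis) for ctl-2, the probe set shared by ctl-1 and ctl-3, and the 3 catalase array controls; each point is an array, marker shapes give the replicate number, and bars are group means of 3 arrays. The silver nitrate arrays lie above the control arrays in each probe set except ctl-2, where replicate 3 (1077 signal units) reaches control replicate 1 (1081).

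The cytosolic peroxiredoxin gene prdx-2 was the most evenly expressed member, with a highest array 1.38 times the lowest. It read 13157, 12685 and 12078 signal units in control, 12661, 12252 and 11633 with aged particles, and 11646, 12041 and 13523 with pristine particles. With silver nitrate it read 11744, 9820 and 11700, and all 3 arrays lay under all 3 control arrays. That difference was small, −0.19 ± 0.09 SE on the log2 scale or 1.14-fold lower (95% interval −0.39 to 0.0002), with an unadjusted p of 0.0502 and a limma adjusted p of 0.407. It depended on the scaling, at −0.12 with the deposited scaling and −0.0084 with quantile normalisation, and was −0.11 without silver nitrate replicate 2. For both kinds of particle the intervals stayed narrow, −0.25 to 0.14 for aged and −0.22 to 0.16 for pristine particles, so a change of more than 1.19-fold in either direction lay outside the interval of each.

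The mitochondrial peroxiredoxin gene prdx-3 read 2862, 2897 and 1900 signal units in control and 1953, 3018 and 2158 with aged particles. It read 2581, 2762 and 2694 with pristine particles and 2923, 2451 and 2979 with silver nitrate. In control and with aged particles single arrays stood apart from the other 2, so the groups overlapped throughout. Log2 differences against control were −0.10 (95% interval −0.55 to 0.34) for aged particles, 0.10 (−0.35 to 0.54) for pristine particles and 0.15 (−0.30 to 0.59) for silver nitrate, with limma adjusted p-values of 0.949, 0.966 and 0.845.

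Read together by group, the members did not move one way. With silver nitrate 5 of 8 lay higher than control and 3 lower, with a median log2 difference of 0.14 where the median of all probe sets was −0.01. With aged particles 3 lay higher and 5 lower (median −0.08, all probe sets −0.03), and with pristine particles 2 lay higher and 6 lower (median −0.06, all probe sets 0). Silver nitrate replicate 2 was the highest of the 12 arrays for 4 members and the lowest for sod-4 and prdx-2, so 6 of 8 members had an extreme there, against 0 to 3 on any other array. That array also had the lowest maximum signal, 25316 against 29454 to 38126 on the others, while its root mean square deviation over all probe sets (0.37 on the log2 scale) lay within the 0.32 to 0.42 of the other arrays.

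**Figure D4:**
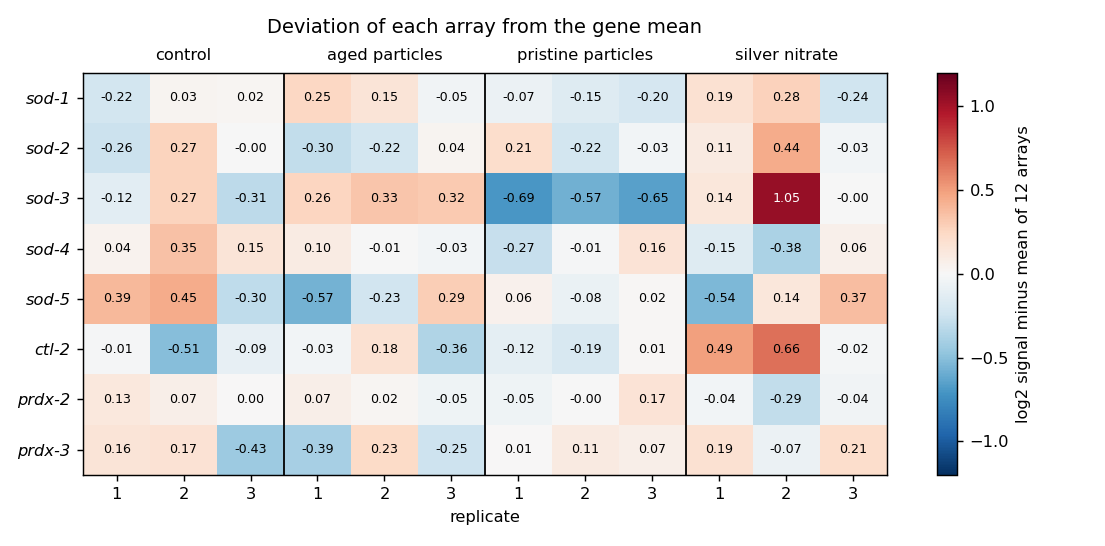
Log2 signal minus the gene's mean over 12 arrays, for the 8 genes (rows) on each array (columns, by group and replicate number); red is above the mean, blue below. The pristine-particle columns are low for sod-3 on all 3 arrays, and silver nitrate replicate 2 holds the highest value for sod-1, sod-2, sod-3 and ctl-2.

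Genes that work with these enzymes were measured too, in 6 lists with 86 measured genes of 91. Limma called 0 of them against control with aged particles (0.00887% of all probe sets were called), pristine particles (0.00443%) or silver nitrate (0.133%), and 1 between exposures, for aged particles against silver nitrate (0.253%). At an unadjusted p under 0.05 the count was 4 of 86 with aged particles (4.65%, against 8.25% of all probe sets), 16 with pristine particles (18.6%, against 8.63%) and 21 with silver nitrate (24.4%, against 12.3%). Arrays did not overlap with control for 10 genes with aged particles (11.6%, near the 11.1% of all probe sets), 21 with pristine particles (24.4%, against 11.3%) and 22 with silver nitrate (25.6%, against 14.1%). The lists were chosen with earlier results of these data known. Each gene stands by its brightest probe set, while the shares cover all probe sets, dim ones included. The counts therefore have no like background, and no response of the lists is read from them.

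Among 15 genes described as DAF-16 targets, apart from the members themselves, values went both ways. The called gene was scl-1, which codes for a secreted SCP-like protein and was higher with aged particles than with silver nitrate by 1.04 on the log2 scale (limma adjusted p = 0.0472). Its signal was 91.2 ± 11.5 in control, 133 ± 20.6 with aged particles, 84.6 ± 15.1 with pristine particles and 64.1 ± 5.21 with silver nitrate (SD, n = 3 arrays each). Signal for lea-1, a gene for a hydrophilic desiccation protein, was 1739 ± 443 in control and 3182 ± 265 with pristine particles (log2 difference 0.90, limma adjusted p = 0.211). With silver nitrate it was 2800 ± 452 (0.71, adjusted p = 0.158). Of its 5 other probe sets, 1 differed likewise (0.82 in both exposures). The rest differed by −0.19 to 0.11 with pristine particles and by −0.21 to 0.17 with silver nitrate. The aquaglyceroporin gene aqp-1 read 1929 ± 250 in control and 3835 ± 332 with pristine particles (1.00, adjusted p = 0.322). With pristine particles, where sod-3 was lowest, 3 of the 15 targets had all arrays above control and 6 had all arrays below, where 11.3% of all probe sets did not overlap, and their median was −0.16 (all probe sets 0). With aged particles these counts were 1 and 1 (11.1% of all probe sets), close to the background, with a median of 0.07 (all probe sets −0.03). With silver nitrate, where sod-3 had its highest mean, 1 target had all arrays above control and 5 had all arrays below (14.1% of all probe sets), with a median of −0.30 (all probe sets −0.01).

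Among 18 measured regulators, the insulin receptor gene daf-2 lay lower than control in each exposure. Its brightest probe set read 172 ± 30.5 in control, 79.4 ± 20.5 with aged particles, 107 ± 7.32 with pristine particles and 113 ± 7.46 with silver nitrate. The log2 differences were −1.14, −0.67 and −0.59 (limma adjusted p = 0.184, 0.378 and 0.274). All arrays of each exposure lay below all control arrays, where 11.1%, 11.3% and 14.1% of all probe sets did not overlap with control. The probe sets of daf-2 did not match each other: another differed by −1.33, −0.52 and −0.74, and the next, with 1 array at the limit, by 0.42, 0.63 and 0.17. The last probe set lay at the limit on 7 arrays. The zinc-finger factor gene pqm-1, which acts opposite to DAF-16 in the nucleus, differed by −0.45 with silver nitrate (adjusted p = 0.115), and the gene for the kinase that acts under the receptor, age-1, by 0.25 with pristine particles and 0.22 with silver nitrate (adjusted p = 0.303 and 0.212).

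Other peroxidases, 15 measured, had no called gene. The glutathione peroxidase gene gpx-7 read 241 ± 64.4 in control and 434 ± 125 with silver nitrate (log2 difference 0.85, limma adjusted p = 0.195). Its arrays did not overlap between these groups, where 14.1% of all probe sets did not. For gpx-3 the values were 938 ± 107 in control, 1101 ± 109 with aged and 726 ± 124 with pristine particles. The 2 particle groups did not overlap (0.61, limma adjusted p = 0.156), where 15.6% of all probe sets did not. The dim gpx-8 differed by −0.81 with silver nitrate (adjusted p = 0.245), and its other probe set lay at the limit on 7 of 12 arrays.

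The 13 thioredoxin and glutaredoxin genes, which include the partners that recharge peroxiredoxins, lay close to control. Their median log2 difference was −0.06 with aged particles, −0.09 with pristine particles and −0.01 with silver nitrate. Those with the smallest p of the F test were trx-4 (−0.31 with pristine particles), the glutaredoxin gene glrx-5 (−0.26 with pristine particles) and the mitochondrial thioredoxin gene trx-2 (−0.34 with silver nitrate), with limma adjusted p-values of 0.343, 0.425 and 0.291. In trx-2 the other probe set differed by −0.21.

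Genes whose products make superoxide or peroxide, 9 measured, and 16 genes of the peroxisome and of mitochondrial chaperones had no called member either. The ubiquinone synthesis gene clk-1 read 837 ± 27.8 in control and 689 ± 17.0 with aged particles (log2 difference −0.28, limma adjusted p = 0.408), and gas-1, for a subunit of respiratory complex I, differed by 0.17 with silver nitrate (adjusted p = 0.467; its other probe set 0.07). The dual oxidase gene duox-2 differed by −0.93 with pristine particles and 0.33 with silver nitrate (adjusted p = 0.598 and 0.839), with 1 of its 12 arrays at the limit. Among peroxisomal genes, daf-22, for a thiolase of fatty acid shortening, lay above control on all arrays of each exposure (0.20, 0.44 and 0.33, limma adjusted p = 0.75, 0.386 and 0.35). Of all probe sets, 11.1%, 11.3% and 14.1% did not overlap with control with aged particles, pristine particles and silver nitrate. The peroxin genes prx-11 and prx-12 differed by −0.42 and 0.43 with silver nitrate (limma adjusted p = 0.229 and 0.235), in opposite directions. Each was without overlap with control, as were 14.1% of all probe sets.

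The genes most like sod-3 and ctl-2, the members with the widest range of group means, were sought among 12267 genes over the limit on all arrays, as the smallest root mean square difference between centred log2 profiles over the 12 arrays. For sod-3 they were sru-40 (0.22), dod-19 (0.23) and T19H5.6 (0.23), against 0.48 for the departure of sod-3 from its own mean. Each had its lowest mean signal with pristine particles, at 62.2, 145 and 31.6, and its highest with silver nitrate, at 92.7, 297 and 65.0. For ctl-2 they were T01D3.6, hbl-1 and aqp-3 (0.14 to 0.15, against 0.31 for ctl-2), each highest with silver nitrate. Of these 6 genes none was called in any of the 6 comparisons, and the likeness is a description of these 12 arrays.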

How the data were processed

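The deposited file held 1 intensity for each of 22625 probe sets on 12 arrays (per the labels' protocols, 100 ng of RNA was labelled with Affymetrix's IVT Express reagents). Each deposited intensity column had a mean, trimmed by 2% at each end, of 500.1 to 500.2, so arrays had been brought to one scale before deposit. How probes were summarised is not given in the sources used here. Genes came from the platform annotation, with symbols updated through the RefSeq gene table. The 77 array controls stayed out of the tests. Arrays were brought to one median, values under 16 were set to 16, and log2 was taken. limma (3.58.1, R 4.3.3) fitted a mean per group over all 12 arrays, with Benjamini-Hochberg adjustment over 22548 probe sets, 6 pairwise contrasts and an F test. The fit was tested on simulated data. For genes of the lists, the brightest probe set stands for the gene. Named were the 8 members, and from each list any called gene and the 3 with the smallest p of the F test. Catalase array controls were added after their values were seen. Members and lists were chosen with earlier results of these data known. The number of arrays limits the precision. Same-numbered replicates did not deviate together (r = −0.10 to 0.09), so the replicate number was not used as a block in the model reported. No sequences are printed, and no genome coordinates.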

Additional observations from a re-analysis of the deposited data

Results flagged for a closer look

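The gene sod-3 lay on opposite sides of control in the particle groups. All 3 aged-particle arrays lay above the control mean and all 3 pristine-particle arrays below it, and the difference between these groups was 0.94 on the log2 scale (limma adjusted p = 0.237). All silver nitrate arrays of sod-3 also lay above the control mean, and the difference of pristine particles from silver nitrate was −1.04 (adjusted p = 0.241). For sod-1, all 3 aged-particle arrays lay above the control mean and all 3 pristine-particle arrays below it, while both groups overlapped with the control arrays. The sod-1 difference of aged from pristine particles was 0.26 (limma adjusted p = 0.595).

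The 3 catalase control probe sets, which are array controls and stood outside the comparisons of genes, had a signal above control on all silver nitrate arrays. Of all probe sets tested, 14.1% did not overlap between silver nitrate and control. The log2 differences were 0.73 at the 3-prime end, 0.63 in the middle and 0.56 at the 5-prime end. Without silver nitrate replicate 2 they were 0.54, 0.44 and 0.53. These probe sets were taken up after their values were seen. They may read the same transcripts, so they are not independent of each other.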

How the results depend on the processing

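The count of called members was 0 in each comparison and under each of 21 alternatives run, with 2 exceptions. No member value for sod-5 exists above median brightness, and the F test was not run with only the compared arrays. The count was 1 (sod-3) for aged against pristine particles with only the compared arrays, where 8 of all 22548 probe sets were called. It was also 1 (sod-3) for pristine particles against silver nitrate above median brightness. There 7 members remained and 80 of 11274 probe sets were called. With the replicate number as a block, no member was called (0 of 8 in each comparison), so the block changed no call. Leaving out 1 array at a time called 0 members throughout. Over all probe sets the number called moved widely, from 0 to 16 for aged particles against control (2 as reported), 0 to 19 for pristine particles (1), 0 to 185 for silver nitrate (30), 5 to 107 for aged against pristine particles (25), 13 to 182 for aged particles against silver nitrate (57), 0 to 80 for pristine particles against silver nitrate (1) and 12 to 224 in the F test (14). Of 1002 values of single members under alternatives, 965 kept direction and side of the threshold and 35 changed sign, in results whose log2 difference was 0.19 or less in size; the cause was not tested. Without a change of sign, prdx-2 in silver nitrate minus control went from −0.19 to −0.12 with the deposited scaling and −0.0084 with quantile normalisation, and sod-5 in aged particles minus control from −0.35 to −0.21 with a floor of 64. With quantile normalisation the value was −0.0070 for sod-1 in aged particles minus silver nitrate, 0.0068 for sod-2 in pristine particles minus control, −0.039 for sod-5 in pristine particles minus silver nitrate, and 0.0034 and 0.0069 for prdx-2 in aged particles minus control and minus pristine particles. With the deposited scaling it was 0.014 for sod-2 and 0.00012 for prdx-2 in pristine particles minus control, and −0.035 for sod-5 in pristine particles minus silver nitrate. With a floor of 64, sod-5 was 0.046 in aged minus pristine particles and −0.15 in pristine particles minus silver nitrate. Leaving out 1 array gave ranges that crossed 0 as follows. Against control with aged particles, ctl-2 ranged from −0.016 to 0.28 and prdx-3 from −0.30 to 0.026. Against control with pristine particles, sod-2 ranged from −0.15 to 0.12, ctl-2 from −0.045 to 0.20, prdx-2 from −0.093 to 0.015 and prdx-3 from −0.10 to 0.20. Against control with silver nitrate, sod-5 ranged from −0.43 to 0.077 and prdx-3 from −0.054 to 0.25. For aged minus pristine particles, sod-4 ranged from −0.054 to 0.16, sod-5 from −0.39 to 0.034, ctl-2 from −0.096 to 0.17 and prdx-2 from −0.068 to 0.040. For aged particles minus silver nitrate, sod-1 ranged from −0.11 to 0.15, sod-3 from −0.29 to 0.23 and sod-5 from −0.42 to 0.041. For pristine particles minus silver nitrate, sod-5 ranged from −0.26 to 0.20 and prdx-3 from −0.14 to 0.00083.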
